A study of Mus musculus with 24 samples.

Results

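A set of 5 genes was followed across the 8 groups of an RNA-seq experiment in mouse small cell lung cancer lines: 1700007K13Rik, Atg9b, Sytl1, Svop and Crip2. They were chosen by their measured change, as genes with some of the largest rises when p53 was switched back on, so the change between the Restored and Control groups is given below as a description and without a test. They are 5 of the 25239 genes in the table and 5 of the 14104 genes that passed the filter on low values. The study also placed all 5 in a set of genes that it built from these same libraries, so membership of that set is not independent evidence of their direction. 1700007K13Rik, Sytl1 and Svop, which start near 0, passed the filter through their restored libraries.

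The 6 cell lines were each grown from a lung tumor of an RP XTR R2 mouse, which carries Rb1 fl/fl, Trp53 XTR/XTR, Rbl2 fl/fl and Rosa26 FlpO-ER. Adenoviral CMV-Cre had deleted Rb1 and Rbl2 and trapped Trp53 in all of them, so every group lacks both retinoblastoma family genes, Control included. 4-hydroxytamoxifen (4-OHT) activates the FlpO-ER recombinase and restores Trp53. The study sorted the lines by their response to restoration: viability is lost in Type D (lines 4711-1, 4711-18 and 4716-11) and kept, with senescence, in Type V (lines 4711-11, 4716-10 and 4716-14). Every line was sampled at 72 h in 4 libraries, which were Control (vehicle), Control + CsA, Restored (4-OHT) and Restored + CsA, where CsA is cyclosporin A, a drug that binds cyclophilins. The 24 libraries thus form 8 groups of 3 lines, and each line comes from 1 tumor. In Type D the Restored libraries come from cultures that are losing viability, and a change in the mix of surviving cells cannot be told apart from a change in RNA per cell.

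p53 is a transcription factor that binds a paired ten-base half-site and raises genes of cell cycle arrest, DNA repair, metabolism and cell death. The 5 genes are not its best known targets. 1700007K13Rik, also called Pierce1, encodes a protein of the inside of ciliary microtubules, and its other name stands for p53-induced expression in Rb-null cells. Atg9b encodes an ATG9 membrane protein that supplies lipid to growing autophagosomes. Sytl1 encodes synaptotagmin-like protein 1, a Rab27 effector of vesicle docking. Svop encodes a vesicle membrane protein related to the SV2 transporters. Crip2 encodes a small protein with LIM zinc-binding domains.

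In GENCODE M21 on GRCm38 (mm10), all 5 are protein-coding genes. 1700007K13Rik lies at chr2:28462001-28466332 on the minus strand, Sytl1 at chr4:133253090-133263113 on the minus strand and Crip2 at chr12:113140236-113145506 on the plus strand. Atg9b (chr5:24384181-24392143) and Svop (chr5:114026910-114091570) are both on the minus strand of chromosome 5, far from each other. The 5 genes therefore do not form a cluster. Atg9b overlaps 294 exonic bases of Nos3, and Svop overlaps 161 exonic bases of Usp30, in both cases on the opposite strand. Libraries were stranded, but the strand setting of the quantification is not given in the sources used here.

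Promoter sequence is shown because the 5 genes move with Trp53. RefSeq promoter windows on GRCm38.p6, which run from 250 bases before to 50 bases after the start, matched 4 of the 5 genes, Svop excepted. They were searched for the p53 half-site by its standard consensus, which reads the same on both strands. Of 32851 windows, 2745 (8.36%) held at least 1 match. Windows of 2 of the 4 genes did. The 250 bases before the start are printed 5′ to 3′ on the gene's strand for the 4 genes, with half-site matches in capitals. The windows are chr2:28466325-28466574 (1700007K13Rik), chr4:133263088-133263337 (Sytl1), chr5:24392144-24392393 (Atg9b) and chr12:113139986-113140235 (the upstream window of Crip2).
1700007K13Rik: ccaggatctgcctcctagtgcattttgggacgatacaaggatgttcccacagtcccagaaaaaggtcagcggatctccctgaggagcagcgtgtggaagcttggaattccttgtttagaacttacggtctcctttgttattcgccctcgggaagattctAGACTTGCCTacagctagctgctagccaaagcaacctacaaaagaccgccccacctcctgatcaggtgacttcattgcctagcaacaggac
Sytl1: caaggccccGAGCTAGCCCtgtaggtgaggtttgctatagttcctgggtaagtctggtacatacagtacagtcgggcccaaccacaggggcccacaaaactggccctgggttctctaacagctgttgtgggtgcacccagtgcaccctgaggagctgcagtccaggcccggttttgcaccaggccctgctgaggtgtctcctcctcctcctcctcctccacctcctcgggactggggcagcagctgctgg
Atg9b: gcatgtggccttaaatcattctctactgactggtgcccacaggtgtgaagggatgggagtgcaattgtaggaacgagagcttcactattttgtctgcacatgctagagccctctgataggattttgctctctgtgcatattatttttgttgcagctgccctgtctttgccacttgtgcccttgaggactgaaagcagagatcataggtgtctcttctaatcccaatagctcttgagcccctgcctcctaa
Crip2: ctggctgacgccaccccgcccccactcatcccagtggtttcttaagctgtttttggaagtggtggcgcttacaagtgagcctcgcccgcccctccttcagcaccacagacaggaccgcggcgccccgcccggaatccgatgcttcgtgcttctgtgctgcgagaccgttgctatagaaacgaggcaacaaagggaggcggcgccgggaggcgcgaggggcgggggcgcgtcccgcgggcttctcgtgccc
The match of 1700007K13Rik covers bases -91 to -82 from the start, and a second match, not printed, covers bases 31 to 40 after it. The match of Sytl1 covers bases -241 to -232. Neither the Atg9b window nor the 2 windows of Crip2 held the half-site. The printed stretch of Crip2 is 66.8% G and C and that of Atg9b 47.6%, against a median of 52.4% over all windows. A match is a match of letters and was not tested for binding.

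Trp53 itself was checked first. Its level was 10.5 to 15.3 TPM, the deposited unit of transcript abundance per length, in the 12 libraries without 4-OHT. It was 181 to 253 TPM in the 12 with it, so every library fits its label for restoration. Trp53 does not check the labels of CsA, line or type. Per library, 11853 to 12651 genes reached 1 TPM. TPM sums to the same total in each library and keeps no record of depth, so depth is unknown and no counting error can be given. Of 8 neuroendocrine markers, 3 stayed under 1 TPM in all 24 libraries and 1 of these was listed at 0 throughout. Their summed level ran from 5.5 to 27.2 TPM in Type D libraries and from 16.4 to 85.8 TPM in Type V libraries.

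Changes are given as differences in log2(TPM + 1), a scale that understates changes from very low levels. A gene is called where the Benjamini-Hochberg adjusted p from limma is under 0.05 and the change is at least 1 log2. Some properties of the design bear on all tests below. Restoration under CsA (Restored + CsA against Control + CsA) was measured in 12 other libraries of the same 6 lines, but the genes were chosen with results of all 24 libraries in view and 3 of them passed the filter through restored libraries, so the rise under CsA is also given as a description, without a test. Comparisons of types and of CsA share libraries with the choice of the genes, which was made on the rise and not on these differences. For 1700007K13Rik, Sytl1 and Svop, which start near 0, a difference between types after restoration is nearly the difference of their rises. Adjusted p-values for it are therefore descriptions and not independent tests.

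**Figure D1:**
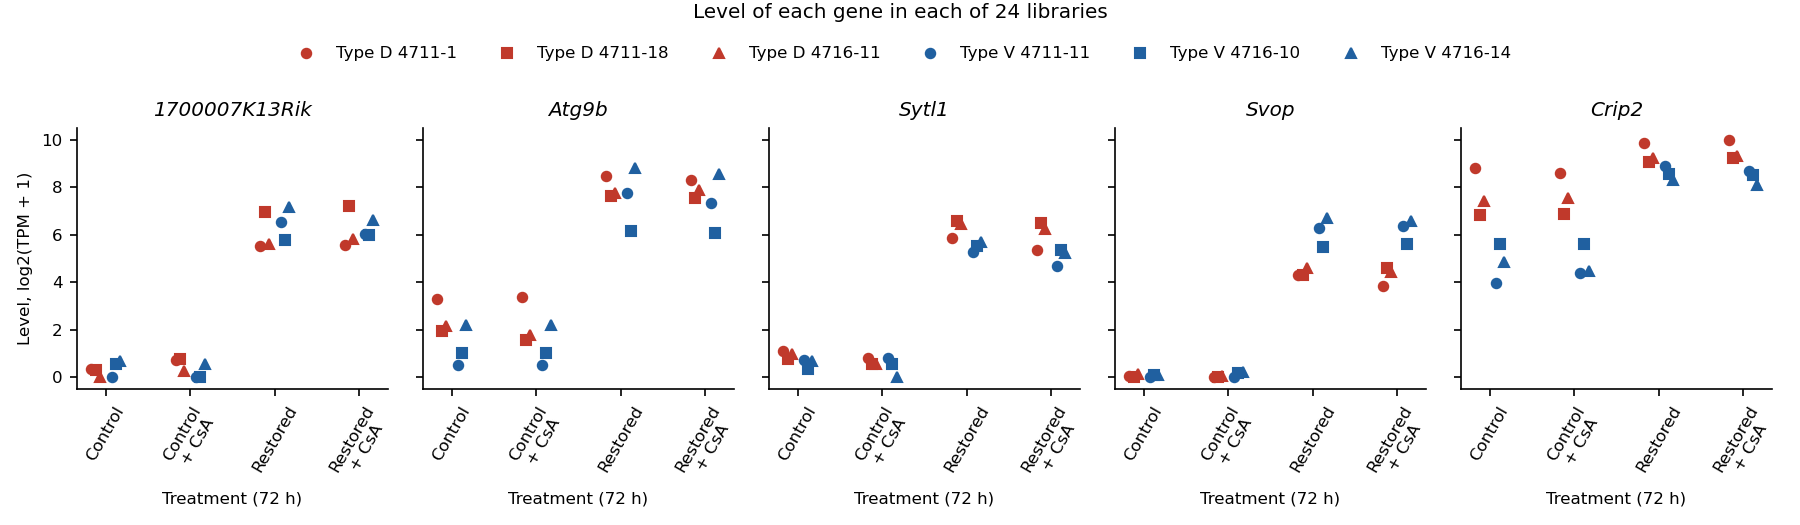
Level of each of the 5 genes as log2(TPM + 1) in each of the 24 libraries, by treatment, with Type D lines in red and Type V lines in blue and 1 symbol per line. For every gene and in every line, both restored libraries lie above both unrestored ones, and Crip2 is the gene with the highest starting levels (14.7 to 447 TPM in Control).

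1700007K13Rik was close to silent until Trp53 was restored. Type D Control libraries held 0.272, 0.239 and 0 TPM (lines 4711-1, 4711-18 and 4716-11), and Type V Control libraries 0, 0.443 and 0.619 TPM (lines 4711-11, 4716-10 and 4716-14). In Restored it reached 44.7, 123 and 48.1 TPM in Type D and 91.7, 53.5 and 141 TPM in Type V. No restored library came near an unrestored one, and lines of both types were mixed in the order of restored levels, with 4716-14 (Type V) and 4711-18 (Type D) highest. The difference was 5.81 ± 0.76 log2 in Type D and 6.08 ± 0.73 log2 in Type V (SD, n = 3), ranks 1 and 3 among all genes tested.

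With CsA the same picture held for 1700007K13Rik. Control + CsA libraries held 0.651, 0.712 and 0.189 TPM in Type D and 0, 0 and 0.474 TPM in Type V. Restored + CsA libraries held 46.7, 145 and 55.2 TPM in Type D and 63.3, 61.3 and 96.4 TPM in Type V. Line 4711-18 was again well above the other Type D lines, and the groups did not overlap. The difference under CsA was 5.61 ± 0.78 log2 in Type D and 6.01 ± 0.04 log2 in Type V (SD, n = 3).

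Types did not separate for 1700007K13Rik in any of the 4 treatments, where their ranges overlapped. The difference of Type D minus Type V was -0.46 log2 in Restored (95% interval -1.36 to 0.44, adjusted p = 0.516, limma) and 0.00 log2 in Restored + CsA (95% interval -0.90 to 0.90). The interval in Restored includes a difference of more than 1 log2.

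Atg9b started low but detectable and reached the highest restored levels after Crip2. Control libraries held 8.78, 2.86 and 3.49 TPM in Type D and 0.409, 1.00 and 3.61 TPM in Type V. Restored libraries held 356, 197 and 213 TPM in Type D and 214, 71.0 and 447 TPM in Type V. Line 4716-14 was highest and line 4716-10 lowest after restoration, both of them Type V, and the Type D lines lay between them. The ratio of Restored to Control ran from 40.6 to 69.1 in the Type D lines and from 70.7 to 523 in the Type V lines. The line with the least Atg9b at the start, 4711-11, had the largest ratio.

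Under CsA, Atg9b went from 9.44, 1.91 and 2.41 TPM to 312, 183 and 234 TPM in Type D. In Type V it went from 0.435, 1.05 and 3.56 TPM to 158, 65.5 and 375 TPM. Each line kept its starting rank, as the order of the 6 lines was the same in Control and Control + CsA. The difference under CsA was 5.67 ± 0.66 log2 in Type D and 6.06 ± 0.92 log2 in Type V (SD, n = 3), rank 1 among all genes tested in each type.

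The ranges of the types overlapped for Atg9b in each treatment. Type D minus Type V was 1.23 log2 in Control (95% interval -0.23 to 2.69, adjusted p = 0.267) and 0.38 log2 in Restored (95% interval -1.08 to 1.84, adjusted p = 0.762, limma). Atg9b had the widest intervals of the 5 genes, and its Type V lines differed 6.3-fold among themselves in Restored (71.0 to 447 TPM). Nos3, which overlaps it on the opposite strand, stayed at or below 0.243 TPM in all 24 libraries.

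Sytl1 started at or below about 1 TPM in every line. Control libraries held 1.14, 0.701 and 0.934 TPM in Type D and 0.666, 0.279 and 0.605 TPM in Type V. Restored libraries held 57.4, 94.6 and 87.2 TPM in Type D and 37.2, 44.8 and 51.0 TPM in Type V. In both treatments all 3 Type D lines lay above all 3 Type V lines, although by little. The mean was 79.7 ± 19.7 TPM in Type D and 44.3 ± 6.94 TPM in Type V Restored libraries (SD, n = 3), a ratio of 1.8, and the ratio of the Control means was 1.79.

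With CsA, Sytl1 went from 0.728, 0.448 and 0.475 TPM to 39.3, 87.9 and 73.7 TPM in Type D. In Type V it went from 0.768, 0.448 and 0 TPM to 24.3, 39.7 and 36.4 TPM. Line 4711-1 fell just below Type V line 4716-10 here, so the types overlapped. The difference under CsA was 5.38 ± 0.74 log2 in Type D and 4.63 ± 0.71 log2 in Type V (SD, n = 3).

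Type D minus Type V for Sytl1 was 0.81 log2 in Restored (SE 0.29, adjusted p = 0.0666) and 0.93 log2 in Restored + CsA (SE 0.29, adjusted p = 0.0421, limma). Neither was called in this fit, the first by its adjusted p and its size and the second by its size alone. A limma fit with the cell line as a random block allows for likeness between libraries of a line. There the adjusted p was 0.283 in Restored and 0.230 in Restored + CsA, so neither passed on adjusted p. In the fit without a block the outcome rests on line 4711-1. Without it the difference was 1.03 log2 in Restored (adjusted p = 0.0337) and 1.27 log2 in Restored + CsA (adjusted p = 0.0117), and both were called. Without Type V line 4716-10 the difference in Restored + CsA was 1.07 log2 (adjusted p = 0.0431).

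Svop was the gene closest to silence and the one with the clearest difference between types after restoration. Control libraries held 0.0327, 0 and 0.107 TPM in Type D and 0, 0.0532 and 0.0495 TPM in Type V. Restored libraries held 18.5, 18.9 and 22.8 TPM in Type D and 77.1, 43.7 and 103 TPM in Type V. The 3 Type D lines were close to each other, and the lowest Type V line lay above the highest Type D line. The restored means were 20.04 ± 2.38 TPM in Type D and 74.7 ± 29.9 TPM in Type V (SD, n = 3), 3.73-fold higher in Type V.

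With CsA, Svop held 0, 0 and 0.0453 TPM in Control + CsA and 13.2, 22.97 and 20.7 TPM in Restored + CsA of Type D. In Type V it held 0, 0.128 and 0.171 TPM and then 81.3, 48.0 and 93.5 TPM. The types again did not overlap after restoration and overlapped before it. The difference on restoration under CsA was 4.26 ± 0.39 log2 in Type D and 6.05 ± 0.53 log2 in Type V (SD, n = 3). Type D minus Type V was -1.77 log2 in Restored (adjusted p = 0.000281) and -1.90 log2 in Restored + CsA (adjusted p = 0.000154, limma), and both were called. With the cell line as a random block in limma, the adjusted p was 0.0038 and 0.0025, and both stayed called. Svop started near 0, so these are nearly differences of its rise, and the adjusted p-values are descriptions. Among lines whose names begin with 4711 the order was 77.1 TPM (Type V) against 18.5 and 18.9 TPM (Type D), and among those that begin with 4716 it was 43.7 and 103 TPM against 22.8 TPM. Usp30, which overlaps Svop on the opposite strand, changed by 0.28 log2 in Type D and 0.05 log2 in Type V on restoration under CsA (adjusted p = 0.465 and 0.958).

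Crip2 differed from the other 4 genes in being abundant before restoration. Control libraries held 447, 111 and 171 TPM in Type D and 14.7, 47.2 and 28.1 TPM in Type V. Restored libraries held 914, 528 and 599 TPM in Type D and 469, 369 and 312 TPM in Type V. Type D lines lay above Type V lines in both, with an 8.11-fold ratio of means in Control that had narrowed to 1.77-fold in Restored. The order of the 3 Type D lines was the same before and after.

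By log2 change Crip2 is not among the largest rises in Type D. Its difference of 1.69 ± 0.61 log2 (SD, n = 3) ranked 343 among the genes tested there, against 3.76 ± 1.03 log2 and rank 25 in Type V. By gain in TPM it was the largest of the 5 genes in both types, with a mean gain of 437 TPM in Type D (rank 34) and 353 TPM in Type V (rank 40 of 25239 genes). The gains of single lines were 466, 416 and 428 TPM in Type D and 455, 321 and 284 TPM in Type V, so on this scale the types overlapped. The ratio of Restored to Control ran in the opposite order to the starting level over the 6 lines, from 2.04 in line 4711-1 to 32.0 in line 4711-11. The starting level is the denominator of that ratio, so the relation is in part built in.

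With CsA, Crip2 went from 389, 115 and 183 TPM to 1013, 593 and 639 TPM in Type D. In Type V it went from 19.97, 47.3 and 21.3 TPM to 409, 358 and 274 TPM. The gains were 624, 477 and 456 TPM in Type D and 389, 311 and 253 TPM in Type V, and here they did not overlap. On the log2 scale the difference was 1.84 ± 0.49 in Type D and 3.60 ± 0.70 in Type V (SD, n = 3). The Type D value was 1.59 log2 without line 4711-18, 1.87 log2 without line 4716-11 and 1.71 log2 with median-ratio scaling. It met the call rule with all lines, with or without the cell line as a block. It did not meet it in these settings or when the compared groups were fitted by themselves. The rule serves here as a description, since the gene was chosen for its rise.

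Crip2 was higher in Type D by 2.87 log2 in Control (SE 0.50, adjusted p = 0.000704) and by 2.84 log2 in Control + CsA (SE 0.50, adjusted p = 0.000718, limma). With the cell line as a random block in limma, the adjusted p was 0.0020 and 0.0021. The Control call was lost in a fit to the Control libraries alone (adjusted p = 0.0611). After restoration the difference was 0.80 log2 (95% interval -0.25 to 1.85, adjusted p = 0.304) and with CsA 1.08 log2 (95% interval 0.03 to 2.13, adjusted p = 0.174), and neither was called although the ranges of the types did not overlap. Within lines that share the name prefix 4711, Control levels were 447 and 111 TPM in Type D and 14.7 TPM in Type V, and within the prefix 4716 they were 171 TPM and 47.2 and 28.1 TPM.

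**Figure D2:**
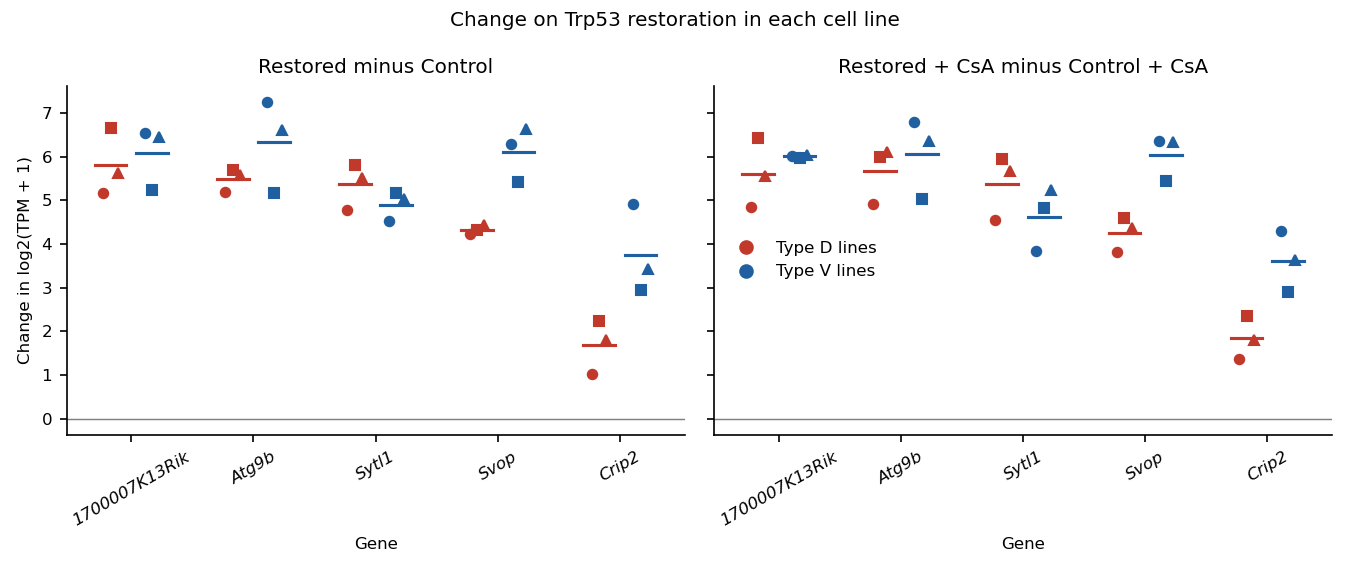
Change in log2(TPM + 1) on Trp53 restoration for each gene and line, without CsA (left) and with CsA (right), where points are lines, horizontal bars are means of 3 lines, red is Type D and blue is Type V. All 30 values in each panel are above 0, and Svop and Crip2 are the genes whose Type V lines all lie above the Type D lines.

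The choice of genes fixed the count in the comparison without CsA, where all 5 pass the call rule in both types, against a background of 4.49% of genes called higher in Type D and 3.39% in Type V. Under CsA all 5 also pass it in both types, where 3.53% of genes tested were called higher in Type D and 2.84% in Type V. Nothing is read from these counts, since the genes were chosen for this rise. Each of the 5 genes was higher after restoration in 6 of 6 lines, with and without CsA.

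The size of the rise was compared between types in the CsA libraries. The genes were chosen for their rise with these libraries in view, so the adjusted p-values below are descriptions and not independent tests. In the fit without a cell line block none of the 5 was called (0.0142% of genes were), with Svop at -1.78 log2 in Type D minus Type V (95% interval -2.61 to -0.96, adjusted p = 0.271) and Crip2 at -1.76 log2 (95% interval -3.24 to -0.27, adjusted p = 1, limma). With the cell line as a block, which removes the level of each line, both were called, Svop with an adjusted p of 0.0048 and Crip2 with 0.033, against 2.32% of genes called in that fit. For the other 3 genes the difference was -0.39 log2 (1700007K13Rik), -0.39 log2 (Atg9b) and 0.76 log2 (Sytl1), and none was called with the block (adjusted p = 0.605, 0.668 and 0.279). Without the block, Svop was also called when Type V line 4716-10 was left out (-2.09 log2, adjusted p = 0.0263).

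Svop and Crip2, whose rises were called different between types with the block but not in the main fit, had different starting points. Svop was near 0 in both types and differed after restoration. Crip2 differed before restoration and was closer between types after it. Of the 5 genes, 1 was called between types in Control (Crip2, background 8.83%), 1 in Control + CsA (Crip2, background 9.88%), 1 in Restored (Svop, background 9.44%) and 1 in Restored + CsA (Svop, background 7.82%). These shares are low in number and the 5 genes are not a sample of genes, so nothing is read from the counts.

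**Figure D3:**
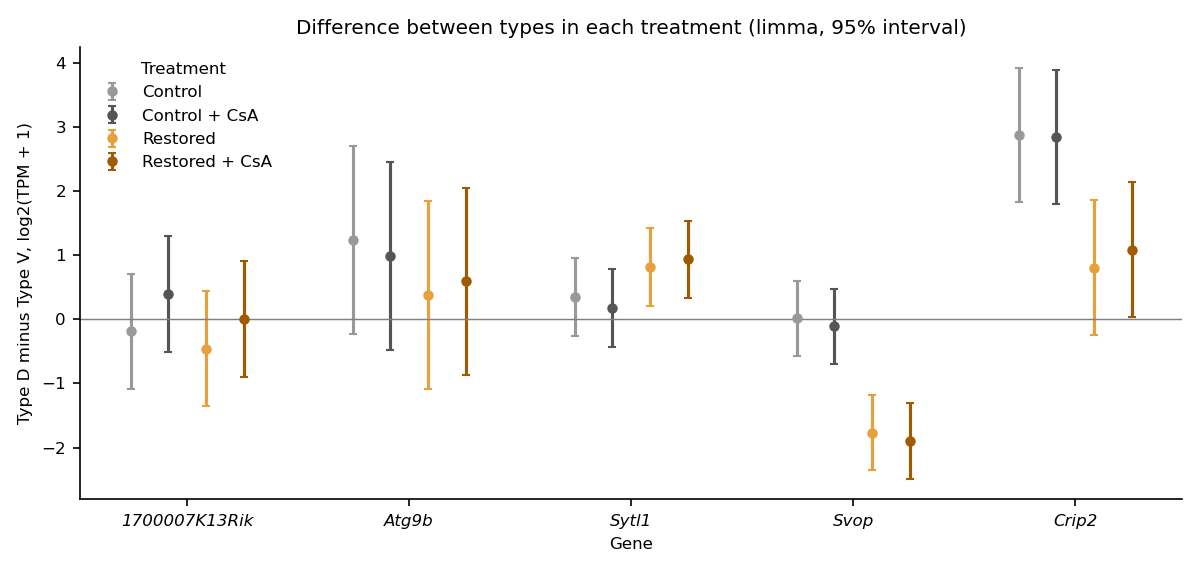
Difference of Type D minus Type V in log2(TPM + 1) for each gene in each of the 4 treatments, with 3 lines per type. The 95% intervals are from limma without a cell line block. Crip2 is above 0 in the treatments without restoration (2.87 and 2.84), Svop is below 0 in the treatments with it (-1.77 and -1.90), and the intervals of 1700007K13Rik and Atg9b include 0 in every treatment.

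None of the 5 genes was called for an effect of CsA, with or without the cell line as a block. Added to Control, CsA changed none of the 5 past the call rule in Type D or in Type V, nor in the mean of both types. In each of these comparisons 0% of all genes were called in limma without the block, a fit that can miss changes within lines. Unadjusted p was under 0.05 for 114, 54 and 193 genes. Added to Restored, it changed none of the 5 past the rule in either type, with a background of 0.0142% in Type D and 0% in Type V, in the mean of types and in the difference between types. Unadjusted p was under 0.05 for 229, 100, 179 and 102 genes in these 4 comparisons.

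Sytl1 moved in one direction in all lines when CsA was added to restored cells. Restored + CsA was lower than Restored in 6 of 6 lines, at 65.3% to 92.9% of the level without CsA. The share of all genes that move one way in 6 of 6 lines was not computed, so nothing is read from this count. The change was -0.35 log2 over both types (95% interval -0.78 to 0.07, adjusted p = 1, limma). Atg9b was lower in 5 of 6 lines, at 73.9% to 110% of the level without CsA, with a change of -0.16 log2 (95% interval -1.19 to 0.87). With the cell line as a block the interval was -0.77 to 0.06 for Sytl1 and -0.66 to 0.34 for Atg9b. For the other 3 genes the lines went both ways.

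The order of the lines in restored cells was much the same with and without CsA. Spearman's rho over the 6 lines between Restored and Restored + CsA was 1 for Crip2, 0.943 for 1700007K13Rik and Svop, and 0.829 for Atg9b and Sytl1. In unrestored cells it was 1 for Crip2 and Atg9b. Levels of the other 3 genes are at or near 0 there, where an order of lines has little content. The paired libraries share a line, so these are descriptions of how stable each line's level was.

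**Figure D4:**
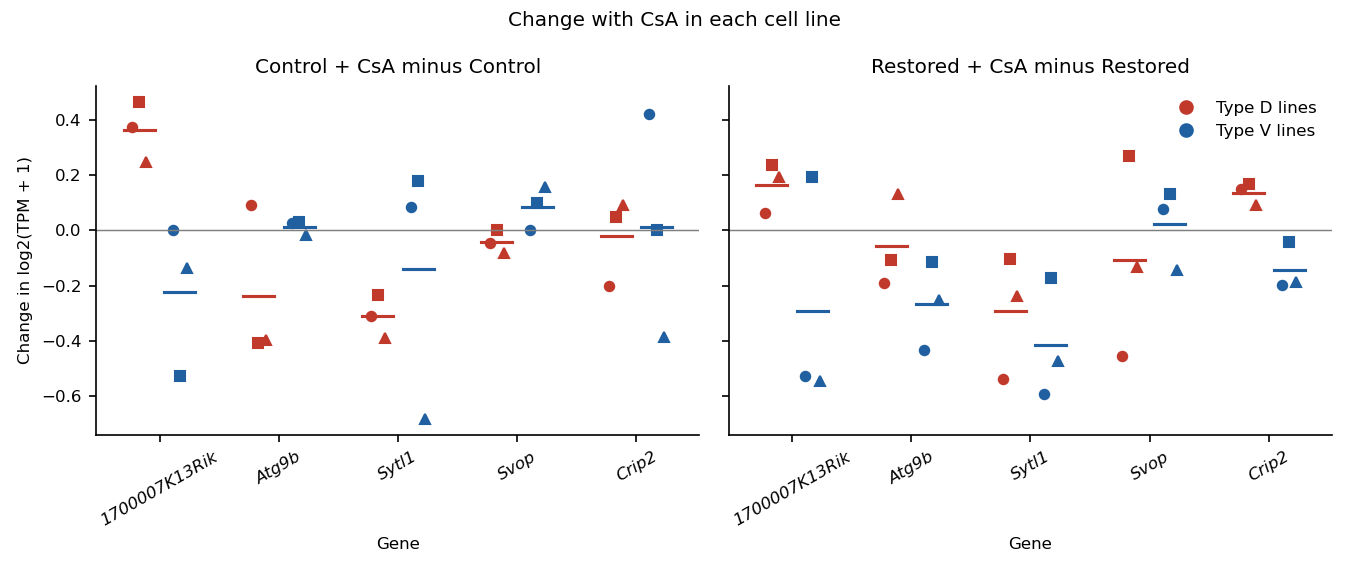
Change in log2(TPM + 1) with CsA for each gene and line, in Control (left) and in Restored (right), where points are lines, horizontal bars are means of 3 lines, red is Type D and blue is Type V. The values lie between -0.68 and 0.47, and Sytl1 in Restored is the gene with all 6 lines below 0 (-0.10 to -0.59).

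The 5 genes were set beside a list of 49 other known p53 targets. Under CsA, 35 of the 49 were called higher in Type D and 32 in Type V (3.53% and 2.84% of all genes were), and 0 were called lower. The median change of the list was 2.01 log2 in Type D and 1.94 log2 in Type V, against 0.09 and 0.04 log2 over all genes tested. Those with the largest rise were, in Type D, Ak1 (4.38 log2), Tap1 (4.28 log2) and Mdm2 (3.99 log2), which encode adenylate kinase 1, a peptide transporter of antigen presentation and the ligase that degrades p53. In Type V they were Cdkn1a (4.51 log2), Sulf2 (4.24 log2) and Dcxr (3.77 log2), which encode the cell cycle inhibitor p21, a sulfatase acting on heparan sulfate and a sugar reductase. Each of these 6 was called in both types. On this scale the differences of 1700007K13Rik, Atg9b and Sytl1 were larger than that of any gene of the list in both types (list maximum 4.38 in Type D and 4.51 in Type V). That of Svop was larger in Type V but not in Type D. These 4 genes started at under 10 TPM in every line, whereas the mean of Mdm2 in Type D Control was 72.1 TPM. They were also chosen for large rises, so nothing is read from their place above the list.

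**Figure D5:**
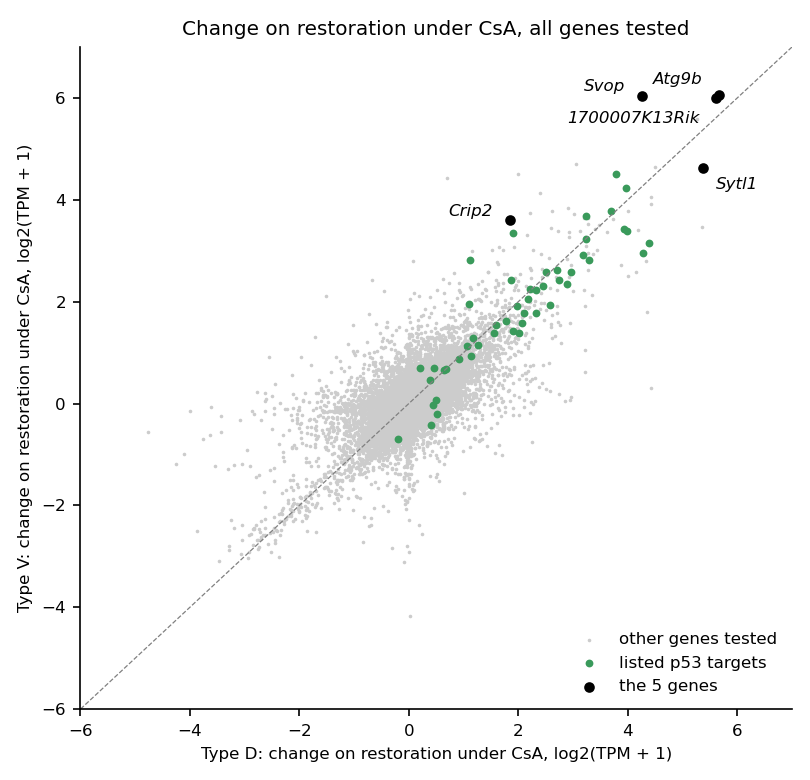
Change on restoration under CsA in log2(TPM + 1) for all 14104 genes tested, Type D on the horizontal and Type V on the vertical axis, with 49 listed p53 targets in green, the 5 genes in black and a dashed line of equal change. Svop and Crip2 lie above the line, Sytl1 lies below it, and 1700007K13Rik and Atg9b lie near the line at the upper right.

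None of the tested paralogs of the 5 genes was called higher on restoration under CsA. Atg9a, the widely used paralog of Atg9b, had mean Type D levels of 37.2 ± 4.07 TPM in Control and 31.3 ± 1.72 TPM in Restored (SD, n = 3), and changed by -0.23 log2 in Type D and -0.08 log2 in Type V under CsA. Before restoration Atg9a was thus the more abundant ATG9 transcript, and after it Atg9b was (TPM, per length). Of 35 other core autophagy genes, 4 were called higher in Type D and 0 in Type V without CsA (4.49% and 3.39% of all genes were), and 1 in Type D and 0 in Type V under CsA (3.53% and 2.84%). The 4 were Atg7, Atg14, Sqstm1 and Wipi1 (1.45, 1.18, 1.56 and 1.05 log2), and under CsA it was Atg7 (1.37 log2, adjusted p = 5.1e-05), which encodes the enzyme that activates the ATG8 conjugation system. The list median under CsA was 0.35 log2 in Type D and 0.23 log2 in Type V.

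Sytl2 and Sytl5 were the other Rab27-binding synaptotagmin-like genes that passed the filter. Sytl2 changed by 0.40 log2 in Type D and 1.43 log2 in Type V under CsA (adjusted p = 0.783 and 0.151, limma), and Sytl5 by -0.44 and -0.23 log2 (adjusted p = 0.814 and 0.943). Sytl3 and Sytl4 were mostly under 1 TPM. Of 8 tested genes of the Rab27 list, 0 were called under CsA in either type. Without CsA 1 was called higher, in Type V, where 3.39% of all genes were. It was Unc13d (1.71 log2, adjusted p = 0.0487, limma), a priming factor of granule release.

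Among the relatives of Svop, Sv2a changed by -0.64 log2 in Type D and -0.52 log2 in Type V under CsA (adjusted p = 0.392 and 0.56, limma), from at most 3.32 TPM in Control. Svopl, Sv2b and Sv2c stayed under 0.1 TPM in Control and Restored. Of 14 tested genes of synaptic vesicle proteins, 0 were called on restoration in either type, with or without CsA.

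Crip1, the gene that follows Crip2 on the same strand at a distance of 809 bases, changed the other way. Its change on restoration under CsA was -0.95 log2 in Type D and -0.57 log2 in Type V, neither called (adjusted p = 0.462 and 0.754, limma). Like Crip2 it was higher in Type D in Control, by 3.84 log2 (adjusted p = 0.000724), and it stayed higher in Restored, by 3.23 log2 (adjusted p = 0.00314). Csrp1 changed by 0.59 and 0.30 log2 and Csrp2 by -2.13 and -0.86 log2 under CsA in Type D and Type V, also not called (adjusted p of Csrp2 0.055 and 0.57). Without CsA, Csrp2 was called lower in Type D (-2.19 log2, adjusted p = 0.0375) and not in Type V (-0.85 log2, adjusted p = 0.536). Crip3 and Csrp3 stayed under 1 TPM in Control and Restored.

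1700007K13Rik was also set beside 12 other genes of ciliary microtubule inner proteins that passed the filter. Of these, 1 was called higher in each type under CsA (3.53% of all genes were in Type D and 2.84% in Type V). In Type V 1 was called lower, as were 249 of all 14104 genes tested. Nothing is read from counts this small. Tekt2, which encodes a tektin filament protein of the ciliary doublet, rose by 1.31 log2 in Type D (adjusted p = 0.0044) and by 1.21 log2 in Type V (adjusted p = 0.00885, limma). Mns1 fell by 1.01 log2 in Type V (adjusted p = 0.0331). Ciliated cell markers summed to 0.394 to 3.63 TPM in Type D libraries and 2.28 to 8.92 TPM in Type V libraries, and 3 of the 5 stayed under 1 TPM in all 24.

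Genes near the 5 were also read. Of 26 tested genes within 100 kb, 1 was called higher on restoration without CsA in each type (4.49% and 3.39% of all genes were), and under CsA 1 was called in Type D and 0 in Type V (3.53% and 2.84%). The gene is Map3k6, a stress-activated kinase gene that lies 160 bases from Sytl1 on the opposite strand. Without CsA it rose by 1.90 log2 in Type D (adjusted p = 0.00266) and by 1.27 log2 in Type V (adjusted p = 0.0451, limma). Under CsA it rose by 1.94 log2 in Type D (adjusted p = 0.00282), from 12.9 ± 6.91 to 49.8 ± 14.5 TPM (SD, n = 3). In Type V the change under CsA was 1.28 log2 (adjusted p = 0.0513, limma), from 2.98 ± 0.35 to 8.74 ± 1.82 TPM. The difference between the types was 0.66 log2 (adjusted p = 1). Reads of each gene are assigned by annotation, and whether the pair shares a promoter was not tested.

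The genes whose levels followed each of the 5 most closely were found by Pearson's r over the 24 libraries on the log2 scale. Restoration separates the libraries into 2 clusters, so r mostly measures that split and is given as a description. For 1700007K13Rik they were Trim11 (0.987), Polk (0.986) and Trp53 itself (0.986). For Atg9b they were Hyal1 (0.987), Prrg4 (0.986) and Tbc1d2 (0.984). For Sytl1 they were Mdm2 (0.989), Trim11 (0.985) and Sec14l5 (0.982). For Svop they were Trim7 (0.988), Fuca1 (0.983) and Fbxw9 (0.976), and for Crip2 Tmbim1 (0.966), Hsd3b7 (0.952) and Pld2 (0.943). Among the 5 genes themselves r ran from 0.923 to 0.975 for the pairs without Crip2 and from 0.674 to 0.829 for the pairs with it.

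Some nearest genes shared the order of types as well as the split. They were chosen for likeness in these same libraries, so a shared order is in part built in. Those below are examples, and how many of the nearest genes share the order was not counted. Trim7, an E3 ubiquitin ligase gene, reached 19.8 ± 7.13 TPM in Type D Restored and 37.3 ± 11.2 TPM in Type V Restored, the same order as Svop. Mdm2 was at 1512 ± 112 TPM and 680 ± 111 TPM, the same order as Sytl1. Tmbim1, a membrane protein gene, had Control levels of 193 ± 66.9 TPM in Type D and 83.0 ± 7.73 TPM in Type V, the same order as Crip2 (SD, n = 3).

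Of 4 lists of markers of other cell types, the immune list had sums that did not overlap between unrestored and restored libraries. It summed to 6.35 to 12.9 TPM in unrestored and 16.3 to 56.0 TPM in restored libraries. This came from Cd68, a lysosomal membrane protein gene, which rose under CsA by 1.96 log2 in Type D and 1.39 log2 in Type V (adjusted p = 0.000164 and 0.00437, limma). Of the 6 immune markers, 4 stayed under 1 TPM in all 24 libraries. Endothelial markers summed to at most 0.922 TPM and erythroid markers to at most 1.39 TPM. Of the 4 neuroendocrine markers that passed the filter, 1 was called lower in Type V under CsA and 0 in Type D. It was Uchl1, which fell by 2.02 log2 in Type V (adjusted p = 0.0089, limma). The median change of the 4 was 0.09 log2 in Type V and -0.13 log2 in Type D. Of all 14104 genes tested, 249 were called lower in Type V. The part of these markers in the changes of the 5 genes was not tested.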

How the data were processed

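TPM values (length-normalized relative transcript abundance), as deposited by the authors, cover 24 libraries made from stranded mRNA and single-end reads. Their methods name kallisto or HISAT2, and mm10 and GRCm39 in the same step, so aligner and build behind the table are uncertain. They were used unchanged. Genes at 1 TPM or more in at least 3 libraries (14104 of 25239) were tested on log2(TPM + 1) with limma 3.58.1 (R 4.3.3; 8 group coefficients, trended eBayes, two-sided, Benjamini-Hochberg adjustment over all genes tested). Libraries were grouped by the labels. The main fit had no cell line block and used 1 spread per gene, pooled over all 8 groups. It thus took the 4 libraries of a line as independent, although only 3 lines stand behind each type. Its p-values and intervals for differences between types can therefore be too small and too narrow. For changes within lines, such as those with CsA, they can instead be too large and too wide. Lines pair the libraries by label, and after removing group means libraries of a line correlated with r of 0.599 to 0.929 (36 pairs), those of different lines with -0.675 to 0.0438 (72 pairs). Gene positions are from GENCODE M21. The named genes were the 5 genes, Trp53, the 3 genes most alike to each, detected paralogs, and the 3 p53 targets with the largest rise under CsA in each type. Atg7, Atg14, Sqstm1, Wipi1, Unc13d, Tekt2, Mns1, Map3k6, Usp30, Nos3, Cd68 and Uchl1 were named after their values were seen. The members and lists were chosen with earlier results of these data known. The fit was tested on simulated data with independent libraries, which does not check how it handles likeness between libraries of a line. Figures used matplotlib in Python. Results were recomputed with quantile normalization, with median-ratio scaling, without the filter, with a filter at 5 TPM, with a pseudocount of 0.1, with the compared groups fitted separately, with the cell line as a block (fixed, or random for differences between types) and with each line left out. Chromatin and protein data were not analysed here.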

Additional observations from a re-analysis of the deposited data

Results flagged for a closer look

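For Crip2, adding CsA to restored cells moved the types in opposite directions. The level with CsA was higher in 3 of 3 Type D lines (0.14 log2 on average) and lower in 3 of 3 Type V lines (-0.14 log2 on average), a difference of 0.28 log2. In limma the difference had a 95% interval of -1.21 to 1.76 and an adjusted p of 1, and with the cell line as a block an adjusted p of 0.998. The gap is small against the spread between lines, since Restored levels were 528 to 914 TPM in Type D and 312 to 469 TPM in Type V. Trp53 moved the same way in the same libraries, with 0.13 log2 in Type D and -0.11 log2 in Type V, each in 3 of 3 lines. The part of Trp53 in the Crip2 values was not tested.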

How the results depend on the processing

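In all, 94 results were recomputed under 1064 combinations of result and setting, of which 1014 kept their direction, their call or a value close to the first one. The pseudocount moved the description of the rise most. With a pseudocount of 0.1 the changes without CsA in Type D became 8.11 log2 (1700007K13Rik), 5.76 (Atg9b), 6.27 (Sytl1) and 7.16 (Svop), and in Type V 8.03 (1700007K13Rik), 6.22 (Sytl1) and 9.06 (Svop). Among calls, the cell line as a replicate block raised the number of the 5 genes whose rise under CsA differed between types from 0 to 2 (and the number of all genes from 2 to 327), and with lines left out it was 0 to 1. The block changed no other call. In a fit to Control libraries alone 0 of the 5 differed between types, since Crip2 was lost. With lines left out, 1 to 2 genes differed between types in Restored and 1 to 2 in Restored + CsA, the second being Sytl1. The rise under CsA in Type D passed the call rule for 4 to 5 genes, which is a description, since they were chosen for their rise.

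Reversals concerned differences that were called in no setting, the largest being Atg9b between types in Restored + CsA (0.59 log2) and Restored (0.38 log2). Crip2 with CsA alone changed sign with median-ratio scaling in Type D (0.0062) and in the mean of types with quantile normalization (0.0099) and median-ratio scaling (0.015), and with CsA added to Restored in the mean of types with quantile normalization (0.0054). With lines left out, type differences in log2 ran from -0.025 to 0.048 (Svop, Control), -0.050 to 0.36 (Sytl1, Control + CsA), -0.33 to 0.99 (Atg9b, Restored), -0.50 to 0.31 (1700007K13Rik, Restored + CsA) and -0.037 to 1.21 (Atg9b, Restored + CsA). CsA alone ran from -0.075 to 0.072 (Crip2, Type D), -0.19 to 0.21 (Crip2, Type V), -0.11 to 0.097 (Crip2, mean of types) and -0.30 to 0.13 (Sytl1, Type V). CsA added to Restored ran from -0.15 to 0.013 (Atg9b, Type D), -0.29 to 0.070 (Svop, Type D), -0.033 to 0.10 (Svop, Type V), -0.14 to 0.046 (Svop, mean of types), -0.028 to 0.011 (Crip2, mean of types) and -0.32 to 0.048 (Svop, Type D minus Type V). The cause of these shifts was not tested. TPM keeps no depth, so levels under about 1 TPM and their order between lines have no error estimate beyond the 3 lines of a group.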
